A study of Bos taurus with 4 samples.

Results

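Translation initiation factors are the proteins that bring the ribosome to an mRNA and set it on the start codon. EIF4E binds the cap of the mRNA, EIF4G is the scaffold that joins the cap complex to the ribosome, and EIF4A is a helicase that unwinds the leader. EIF2 carries the initiator tRNA, its exchange factor EIF2B reloads it with GTP, EIF3 is the large multi-subunit complex on the small ribosomal subunit, and EIF1, EIF5 and EIF6 act on start codon choice and on joining of the subunits. Mature spermatozoa are regarded as largely silent in transcription and in cytoplasmic translation, and the transcripts they hold are mostly left from spermatogenesis.

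The genes described here are those whose name on the array starts with EIF and a digit from 1 to 6. They are 55 of 32429 gene names, measured by 139 of 51282 probes. The name also takes in proteins that are not initiation factors in the strict sense: the 4 EIF2C genes encode Argonaute proteins of small RNA silencing, and the 4 EIF2AK genes encode kinases that phosphorylate EIF2. Of the 55 genes, 47 were matched to a RefSeq entry, where EIF2C1, EIF2C2 and EIF2C3 now carry the symbols AGO1, AGO2 and AGO3.

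Sperm RNA of Murrah buffalo breeding bulls was hybridised to an Agilent bovine array with 60-base probes, read with 1 dye. The high-fertile group held 2 pools and the low-fertile group held 2 pools, each pool made from 2 bulls classed by conception rate. No treatment is given for the bulls, and their ages are not given in the sources used here. The probes were designed on cattle, so mismatches between buffalo and cattle sequence can lower the signal of a probe. The pool is the replicate, and with 2 pools against 2 an exact permutation test of a single value cannot give a two-sided p below 0.333.

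The level of a probe is given as log2 of its signal minus the 75th percentile of that array, so 0 stands for a signal of 32.7 to 37.1, depending on the array. A difference is the low-fertile mean minus the high-fertile mean on that log2 scale, and each p is adjusted over all tested probes. The number of probes well above background was 23271 and 23228 for the high-fertile pair, 25642 for pool 1 of the low-fertile pair and 13033 for its pool 2. All arrays were on 1 slide, the high-fertile pools in its first row and the low-fertile pools in its second, so position on the slide and group cannot be told apart. Of 15 sperm markers, 8 were tested, of which PRM1, a protamine that packs sperm DNA, rose (difference 0.67, adjusted p = 0.023), and AKAP4, SMCP and LDHC were well above background on no array. Of 8 leukocyte markers, 6 were tested and 1 rose, PTPRC (difference 0.78, adjusted p = 0.016). The summed signal of that list, in multiples of the 75th percentile, was 203 and 206 in the high-fertile pair against 322 and 362 in the low-fertile pair. PTPRC, at a log2 level of 7.57 and 7.58 against 8.28 and 8.45, made up nearly all of that sum. The median difference of the 6 tested markers was -0.10, with CD53, LAPTM5, TYROBP and LCP1 between -0.29 and -0.04 and CD14 at 0.40 (adjusted p = 0.11), and CD3E was well above background on no array. Of the other lists, 4 of the 6 epithelial markers were tested and none of the 4 passed. Of the 4 red cell markers 2 were tested: HBA, well above background on all 4 arrays, differed by -0.17 (adjusted p = 0.71), and HBB, well above background on the low-fertile pair and 1 high-fertile array, rose (difference 1.24, adjusted p = 0.012). The spermatozoa had been selected on Percoll, a density gradient meant to remove other cells, before RNA isolation. The part of other cells in the differences below was not tested, and in pooled cells fewer cells of a type and less RNA per cell cannot be told apart.

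The following probes of the EIF4 genes are shown, some that passed the test and some from the same genes that did not. The 3′ probes of EIF4G2 and EIF4A2, the EIF4G3 probe and the 3′ probe of EIF4A1 passed, and the others did not. All are given 5′ to 3′ as the array design holds them, with positions on the cattle build Btau_3.1. For the 3′ probes only the first 30 of the 60 bases are shown.
EIF4G2, 3′ probe, chr15:40896035-40896094, plus strand: ttgaagtggtctttgtgggtgtgaaacaaa
EIF4G2, middle probe, chr15:40891678-40892327, plus strand, across an intron: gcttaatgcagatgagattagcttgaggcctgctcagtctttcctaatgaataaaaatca
EIF4G2, 5′ probe, chr15:40888479-40888538, plus strand: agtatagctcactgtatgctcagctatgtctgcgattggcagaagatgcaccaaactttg
EIF4G3, chr2:136161979-136162038, plus strand: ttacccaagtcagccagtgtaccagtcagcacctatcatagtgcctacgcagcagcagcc
EIF4A2, 3′ probe, chr1:82284476-82284535, minus strand: atcctaggtagggttaaacccccagtaaaa
EIF4A2, 5′ probe, chr1:82289646-82289705, minus strand: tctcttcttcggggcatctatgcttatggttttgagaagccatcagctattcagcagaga
EIF4A1, 3′ probe, chr19:27814855-27814914, plus strand: ttgtcctcaggttgggggagcaggggagag
EIF4A1, second probe, chr19:27813092-27813313, plus strand, across an intron: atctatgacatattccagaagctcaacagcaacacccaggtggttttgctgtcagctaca
The pairs from EIF4G2 and EIF4A2 are shown because probes in the body of these genes and at their 3′ end gave differences of unequal size, as described below. The EIF4G3 probe and the 5′ and second probes lie in stretches that read as protein-coding.

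A gene was represented by its brightest probe over the 4 arrays, and 34 of the 55 genes had a brightest probe well above background on both arrays of a group. For 19 of these the probe was well above background on all 4 arrays. For 12 it was so on the high-fertile pair and on 1 low-fertile array, which was low-fertile pool 1 for 11 of the 12. For 3 (EIF2C4, EIF2S3 and EIF4E) it was so on the high-fertile pair only. No gene entered through the low-fertile pair alone. A gene that entered through the high-fertile pair alone had to be lower in the low-fertile pair, and its count supports nothing.

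**Figure D1:**
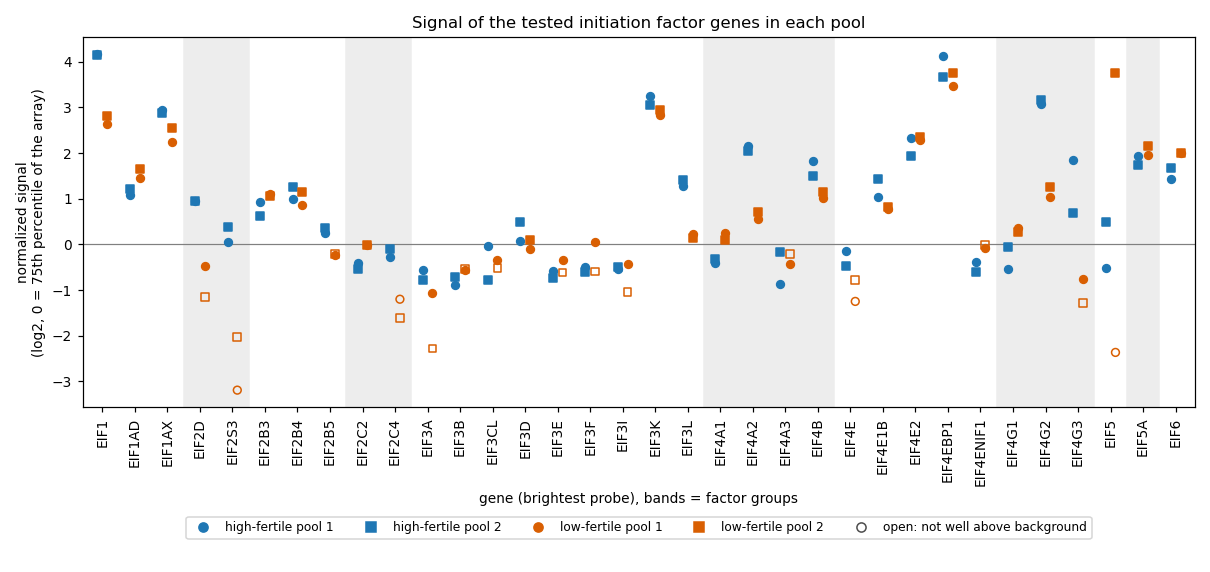
Normalized log2 signal (vertical axis, 0 = 75th percentile of the array) of the brightest probe of each of the 34 tested genes (horizontal axis), with 1 point per pool; blue marks high-fertile and orange low-fertile pools, open points are not well above background, and grey bands separate factor groups. The orange points of EIF1, EIF4A2, EIF4G2 and EIF3L all lie well above background and below the blue points, while low-fertile pool 2 of EIF5 stands at 3.76, far from the other 3 pools.

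In the low-fertile pools 9 of the 34 tested genes fell and 1 rose at an adjusted p of 0.05. Those that fell were EIF1, EIF2D, EIF2S3, EIF2B5, EIF2C4, EIF3L, EIF4A2, EIF4G2 and EIF4G3, and the gene that rose was EIF4A1. Of the genes that fell, 3 were not well above background in 1 of the low-fertile pools and 2 in neither. No gene passed in either direction without a filter on dim probes, with a filter on positive and significant signal, or in the methods' t-test after adjustment. Nor did any other gene of the array pass after adjustment in these settings. At an unadjusted p under 0.05 they gave 12, 14 and 8 members lower and 1, 2 and 2 higher. Both directions together, that was 13 of 55, 16 of 52 and 10 of 34 members. Over all genes it was 6020 of 32429, 6712 of 27317 and 4777 of 16543. Over all genes tested the same rule called 16.3% lower and 9.6% higher, against 26.5% and 2.94% of the members. The median difference was -0.25 over the 34 genes and 0.01 over all genes tested, and with GC centring of the probes -0.11 and -0.07. With normexp background correction the medians were -0.14 and -0.01, and with spike-in centring -0.63 and -0.37. Among the 19 genes well above background on all 4 arrays, 4 fell (EIF1, EIF3L, EIF4A2 and EIF4G2) and 1 rose, or 21.1% and 5.26%. Over all genes well above background on all 4 arrays the shares were 9.32% lower and 13.2% higher. The median difference there was -0.27 for the 19 genes and 0.15 for all such genes. Of the 34 differences 20 were below 0, as were 8087 of 16549 over all genes tested. Normexp background correction, with an offset of 50, made several differences over 1.5 times smaller: EIF2D -0.72, EIF2C4 -0.34, EIF4G3 -0.86, EIF3L -0.66, EIF4A2 -0.80, EIF2B5 -0.16 and EIF4A1 0.24. All of these but EIF2B5 still passed. Without the EIF2C genes, 8 of 32 tested genes fell and 1 rose.

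Both low-fertile values were under the high-fertile ones in 15 of the 34 genes, against 34.3% of all genes tested. They were above in 9 genes, against 35% of all genes tested, and the pools overlapped in 10. Counted by probe, 57 of the 139 probes were tested, of which 16 fell and 1 rose, against 17.6% lower and 9.22% higher over all probes tested. Restricted to the 31 that were well above background throughout, 6 fell and 1 rose, against 9.89% lower and 13.2% higher over all such probes. The labels do not say which bulls went into a pool, and the p-values rest only on the spread between pools. For each probe limma draws that spread towards the one common to all tested probes, with 3.52 prior degrees of freedom.

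**Figure D2:**
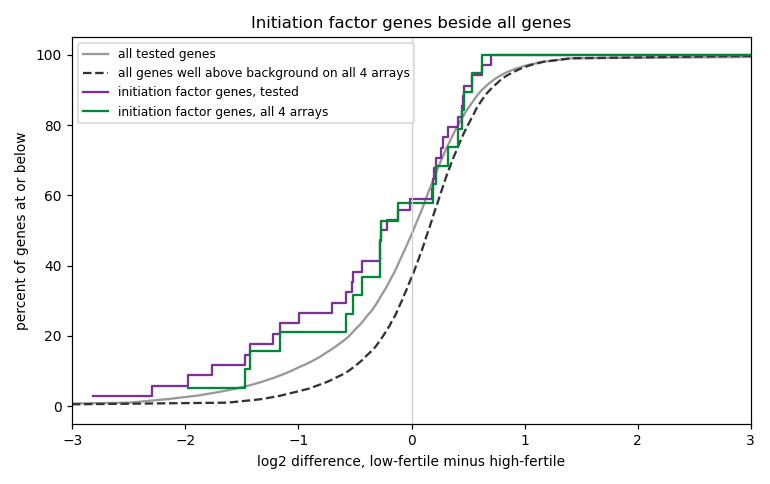
Percent of genes (vertical axis) with a log2 difference, low-fertile minus high-fertile, at or below the value on the horizontal axis, for the initiation factor genes (coloured steps) and for all genes (grey and dashed lines). The steps lie to the left of the lines over the negative differences, with medians of -0.25 and -0.27 against 0.01 and 0.15.

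**Figure D3:**
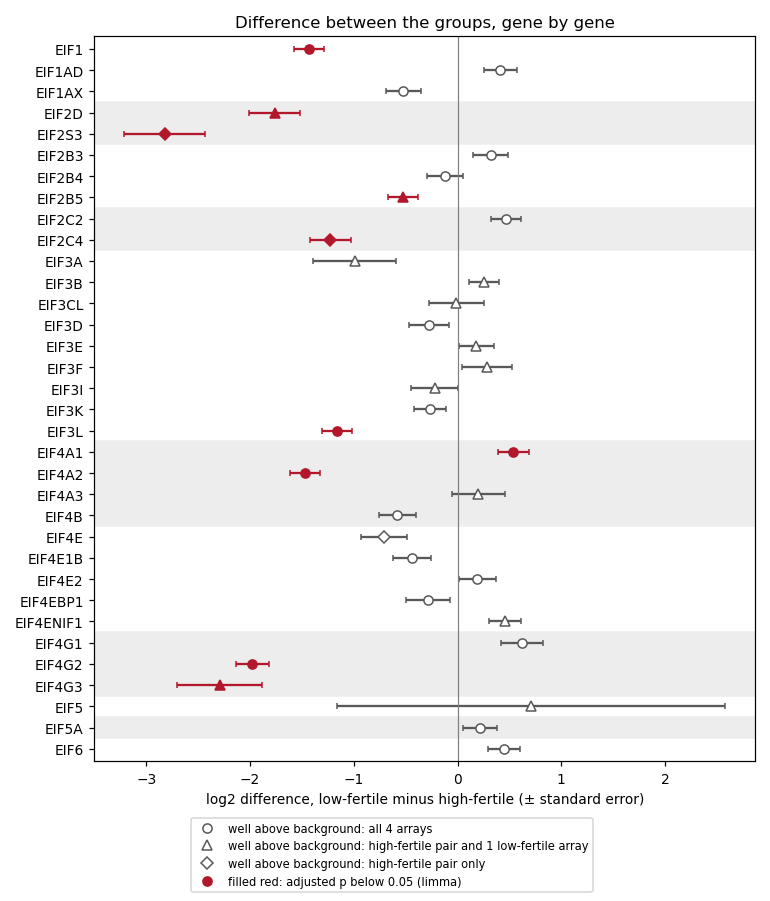
Log2 difference, low-fertile minus high-fertile, with its standard error (horizontal axis) for each of the 34 tested genes; filled red points have an adjusted p below 0.05 in limma, and the shape shows on which arrays the probe was well above background. EIF2S3, EIF4G3 and EIF4G2 lie farthest to the left, and EIF4A1 is the only filled point to the right of 0.

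Of the scaffold and helicase genes of the cap complex, EIF4G2, EIF4G3 and EIF4A2 fell and EIF4A1 rose. EIF4G2 encodes a scaffold of the EIF4G family that lacks the cap-binding partner site and serves cap-independent initiation. Its level was 3.07 and 3.17 in the high-fertile pair and 1.03 and 1.25 in the low-fertile pair. The low-fertile pools were thus 3.94-fold lower, a difference of -1.98 ± 0.157 (SE, limma, adjusted p = 0.0023). EIF4G3, a cap-dependent scaffold, stood at 1.85 and 0.69 in the high-fertile pair and at -0.77 and -1.28 in the low-fertile pair. It fell by 2.29 on the log2 scale (SE 0.407, adjusted p = 0.013, limma), with a wide gap between the high-fertile values and low-fertile pool 2 not well above background. Without that pool, with 1 low-fertile value left, the difference was -2.04 and no longer passed (adjusted p = 0.052). EIF4G1, the main scaffold, had levels of -0.55 and -0.07 in the high-fertile pair and of 0.36 and 0.27 in the low-fertile pair, a difference of 0.62 that did not pass (adjusted p = 0.074).

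EIF4A2, a paralog of the helicase EIF4A1, had levels of 2.15 and 2.05 in the high-fertile pair and of 0.55 and 0.71 in the low-fertile pair. It was 2.77-fold lower in the low-fertile pair (difference -1.47, SE 0.149, adjusted p = 0.0034, limma). EIF4A1 had levels of -0.41 and -0.31 in the high-fertile pair and of 0.25 and 0.10 in the low-fertile pair. It was 1.45-fold higher (difference 0.54, SE 0.149), but its adjusted p of 0.049 (limma) lay at the threshold. The call was lost in 14 of 19 alternative settings, among them spike-in centring (difference 0.15) and each pool left out (0.46 to 0.61). A second tested probe of EIF4A1, in the coding part, differed by -0.14 (adjusted p = 0.69). EIF4B, the cofactor of the helicase, had levels of 1.83 and 1.49 against 1.01 and 1.15, a difference of -0.58 that did not pass (adjusted p = 0.063). Around that probe 2 of the 6 spots were raised on the array of high-fertile pool 1. Without bright patches, which drops that value and leaves 1 high-fertile value, the difference was -0.40. In 4 of 19 alternative settings EIF4B passed. The other tested EIF4B probes differed by -0.04 and -0.10 and did not pass. EIF4A3, which belongs to the exon junction complex, differed by 0.20 (adjusted p = 0.59), and EIF4H was well above background on no array.

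None of the 5 tested genes of the cap-binding protein EIF4E and its partners passed the test. Over all genes tested 16.3% were called lower and 9.6% higher, so with 5 genes this says little about the group. The 5 differences ran from -0.71 to 0.46. EIF4EBP1, the repressor that holds EIF4E away from EIF4G, had levels of 4.12 and 3.67 in the high-fertile pair and of 3.47 and 3.76 in the low-fertile pair, so the groups overlapped (difference -0.28, adjusted p = 0.36). A second probe of EIF4EBP1 differed by 0.53 (adjusted p = 0.18). EIF4E itself was well above background in the high-fertile pair only, with a difference of -0.71 that did not pass (adjusted p = 0.065).

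Among the genes that act on the initiator tRNA and the start codon, EIF1 fell. EIF1 guards the choice of the start codon. Its level was 4.17 and 4.15 in the high-fertile pair and 2.64 and 2.80 in the low-fertile pair. The difference was -1.43 ± 0.147 (SE, limma, adjusted p = 0.0034), or 2.70-fold lower. The probe lies at chr19:43267881-43267940 on the plus strand of Btau_3.1 and starts ggggtctgcttttaacttggactagtgtaa. A second EIF1 probe, slightly upstream, fell by 1.15 (adjusted p = 0.0071), and the other two tested probes differed by -0.47 and -0.42 and did not pass. EIF1AX, which works beside EIF1, had levels of 2.95 and 2.88 against 2.25 and 2.54, with a difference of -0.52 (adjusted p = 0.069). EIF1AD differed by 0.41 (adjusted p = 0.11), and EIF1AY and EIF1B were not tested.

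In the EIF2 group 2 of 6 genes were tested, EIF2S3 and EIF2D. Both entered through the high-fertile pair and none of the group was well above background on all 4 arrays, so that both fell supports nothing about the group. EIF2S3 encodes the gamma subunit that binds GTP and the initiator tRNA. Its level was 0.05 and 0.38 in the high-fertile pair. It measured -3.19 and -2.03 in the low-fertile pair, not well above background in either. The low-fertile pools were at least 5.23-fold lower (adjusted p = 0.0067, limma). With normexp background correction the EIF2S3 difference was -0.63 in place of -2.82. The bound sets the high-fertile mean against the higher, on each low-fertile array, of the probe's own signal and the lowest signal well above background. The EIF2S3 probe lies at chrX:73124752-73124811 on the minus strand and starts ccagactttgctgtagtagacataccactg. EIF2D, a factor that can deliver tRNA to the ribosome without EIF2, stood at 0.95 in each high-fertile pool. It stood at -0.47 and -1.15 in the low-fertile pair, the second not well above background, a difference of -1.76 (SE 0.247, adjusted p = 0.0070). The subunits EIF2S1 and EIF2S2 were not tested, and EIF2S1 was well above background on none of the arrays.

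Of the exchange factor subunits, EIF2B5, the catalytic one, had levels of 0.25 and 0.37 in the high-fertile pair, through which it entered. In the low-fertile pair EIF2B5 stood at -0.24 and -0.20, the second not well above background. Its difference of -0.53 (SE 0.144) passed at an adjusted p of 0.047, which was lost in 10 of 18 alternative settings, among them each pool left out (-0.59 to -0.47, adjusted p = 0.10 to 0.20). EIF2B4 had levels of 1.00 and 1.25 against 0.87 and 1.14, so the groups overlapped (difference -0.12, adjusted p = 0.64). EIF2B3 differed by 0.32 at its brightest tested probe (adjusted p = 0.21). None of the EIF2AK kinases was tested. EIF2AK4, the sensor of amino acid shortage, had levels of -0.50 and -1.34 in the high-fertile pair and of -0.58 and -0.38 in the low-fertile pair, and was well above background in pool 1 of each group.

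Of the Argonaute genes, EIF2C4 had levels of -0.27 and -0.09 in the high-fertile pair and measured -1.20 and -1.62 in the low-fertile pair, not well above background in either. It measured 2.34-fold lower there (difference -1.23, adjusted p = 0.0098, limma), and -0.34 with normexp background correction. EIF2C4 entered through the high-fertile pair alone, so it had to be lower and its call supports nothing. Without high-fertile pool 2, with 1 high-fertile value left, its difference was -1.14. EIF2C2 (AGO2), the Argonaute that cuts its target RNA, had levels of -0.42 and -0.54 in the high-fertile pair and of -0.01 in both low-fertile pools. The pools did not overlap, but the difference of 0.47 did not pass (adjusted p = 0.063). It was 0.06 with normexp correction, 0.09 with spike-in centring and 0.19 with GC centring. With quantile normalization and with the filter on all 4 arrays it passed. EIF2C1 and EIF2C3 were not tested.

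In the EIF3 complex 9 of 13 genes were tested and 1 fell, EIF3L, or 11.1%, against 16.3% of all genes tested. The level of this subunit was 1.28 and 1.41 in the high-fertile pair and 0.22 and 0.14 in the low-fertile pair. The difference was -1.16 ± 0.146 (SE, limma, adjusted p = 0.0053), or 2.24-fold lower. The probe lies at chr5:116756901-116756960 on the plus strand and starts ttggccagtcacctgggttgaagttttttg. Another EIF3L probe, 5904 bases upstream across an intron, measured 2.35-fold lower (adjusted p = 0.0058). That probe was not well above background in either low-fertile pool. It entered through the high-fertile pair alone, so it had to be lower and adds no support. The other 8 tested EIF3 genes differed by -0.99 to 0.28 and did not pass. EIF3K, a peripheral subunit, had levels of 3.24 and 3.06 against 2.82 and 2.94, with a difference of -0.27 (adjusted p = 0.24). EIF3A, the scaffold of the complex, differed by -0.99 (adjusted p = 0.12), with its low-fertile pools at -1.06 and -2.28.

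EIF5 promotes GTP hydrolysis by EIF2. Its brightest probe stood at -0.51 and 0.49 in the high-fertile pair, and at -2.37 and 3.76 in pools 1 and 2 of the low-fertile pair. On that last array 5 of the 6 spots around the probe were also raised, by over 2 log2 units against the other arrays. The difference of 0.71 had an SE of 1.87 and did not pass (adjusted p = 0.80). With such patches of bright spots left out, which drops the value of low-fertile pool 2, the difference was -2.35 (adjusted p = 0.011, limma). Without low-fertile pool 1 it was 3.77 (adjusted p = 0.0072), and without low-fertile pool 2 it was -2.36 (adjusted p = 0.027). Each of these 3 fits has 1 low-fertile value left, which is assumed to vary like the high-fertile pair, so these p-values hold no measure of the low-fertile spread, and the calls go in opposite directions. The other tested EIF5 probe had levels of -0.77 and -0.69 against -1.50 and -2.23 and fell by 1.13 (adjusted p = 0.029), with 1 of its low-fertile values well above background.

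EIF5A, the hypusinated factor that helps ribosomes past difficult peptide bonds, had levels of 1.93 and 1.75 against 1.95 and 2.16 (difference 0.21, adjusted p = 0.36). EIF6, which keeps the large ribosomal subunit from joining early, had levels of 1.44 and 1.67 in the high-fertile pair and of 2.01 and 2.00 in the low-fertile pair. The low-fertile pools of EIF6 lay above the high-fertile ones at each of its 3 tested probes, with differences of 0.45, 0.26 and 0.55, none of which passed (adjusted p = 0.087, 0.21 and 0.065). Spike-in centring, which moved the median of all genes to -0.37, turned the sign of the second (-0.12) and left 0.07 for the first. The first was 0.17 with GC centring. It passed with normexp correction, the filter on all 4 arrays and an intensity trend.

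Probes of the same gene did not always give the same difference. Of the 15 genes with more than 1 tested probe, 6 had probes on both sides of 0 and 6 had at least 1 probe that passed beside 1 that did not. EIF3L was the only gene of the 15 in which every tested probe passed in the same direction, but its second probe entered through the high-fertile pair alone and so had to be lower. In 8 genes no probe passed. Such counts were not made over all genes, so they describe the members and do not set them apart. The largest gap was in EIF3E, a gene singled out after its values were seen. Its brightest probe had levels of -0.59 and -0.73 against -0.34 and -0.61 and differed by 0.18 (adjusted p = 0.45). Its other tested probe, 16074 bases upstream in the gene, had levels of 0.24 and 0.35 in the high-fertile pair and was not well above background in the low-fertile pair. This probe too entered through the high-fertile pair alone, so it had to be lower. The low-fertile pools measured 4.42-fold lower (adjusted p = 0.0022, limma).

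**Figure D4:**
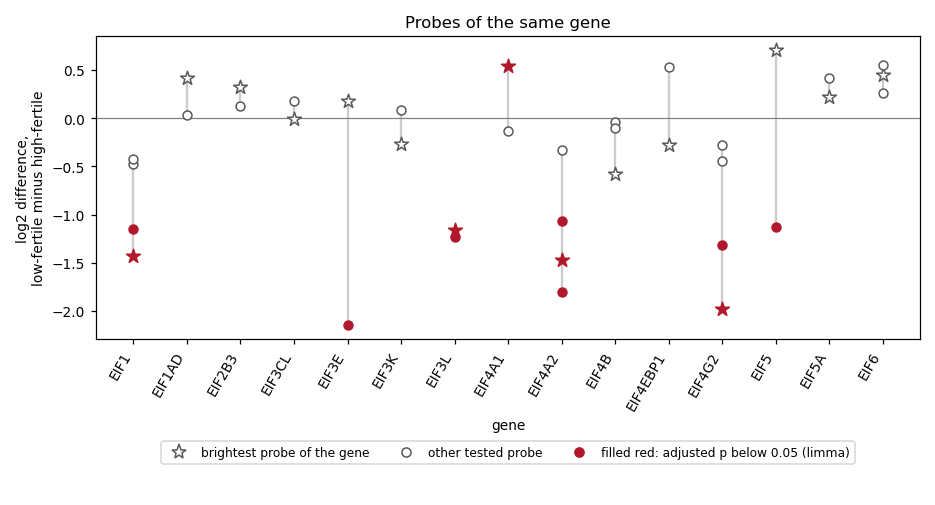
Log2 difference, low-fertile minus high-fertile (vertical axis), of every tested probe of the 15 genes with more than 1 tested probe (horizontal axis); stars are the brightest probe of a gene and filled red symbols have an adjusted p below 0.05 in limma. Both tested probes of EIF3L are filled, while EIF3E, EIF4A1 and EIF5 each have a filled and an open probe on opposite sides of 0.

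The position of the probe in the gene went with the size of the difference in EIF4G2 and EIF4A2. From the 5′ to the 3′ side the 4 tested EIF4G2 probes differed by -0.44, -0.28, -1.32 and -1.98, and only the last 2 passed (adjusted p = 0.0089 and 0.0023). The probes at -0.44 and -1.32 were not well above background on all 4 arrays and entered through the high-fertile pair. The 5′ probe stood at -0.41 and -0.37 in the high-fertile pair against -0.48 and -1.17, and the middle probe at 0.56 in both high-fertile pools against 0.40 and 0.16. In EIF4A2 the 5′ probe differed by -0.33 (adjusted p = 0.23), and the 3 probes within the last 391 bases passed. Of these, 2 differed by -1.07 and -1.47 (adjusted p = 0.0058 and 0.0034). The third entered through the high-fertile pair alone, so it had to be lower, and measured 3.49-fold lower (adjusted p = 0.0041). The sequences of the outer probes are given above. In EIF3E the order was the other way round, as it was within EIF1. Over the 12 genes with tested probes at least 60 bases apart, the 3′-most probe was more negative than the 5′-most in 5 and less negative in 7. Labelling started from an oligo-dT primer at the 3′ end of the mRNA. The part of the distance from that primer in these gaps was not tested.

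**Figure D5:**
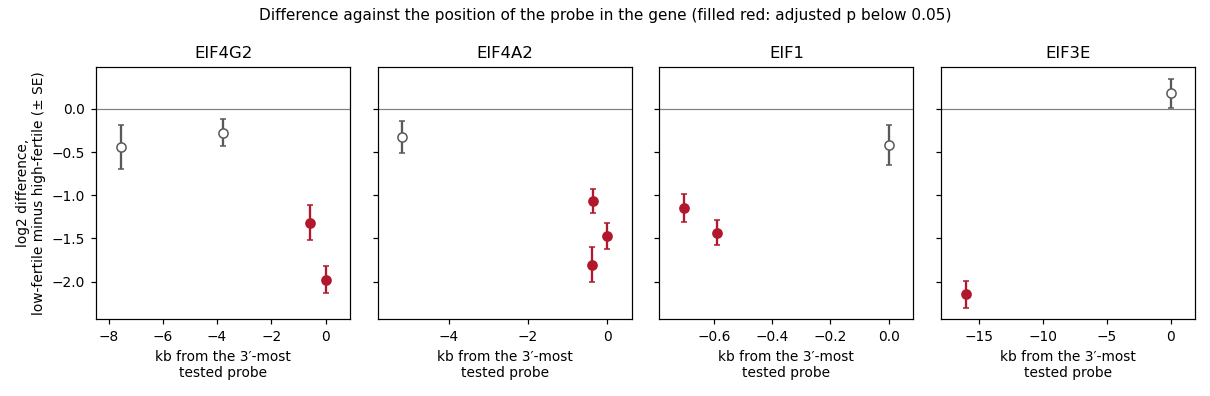
Log2 difference, low-fertile minus high-fertile, with its standard error (vertical axis) against the distance of the probe in the genome from the 3′-most tested probe of the gene (horizontal axis, kb, negative = upstream) for EIF4G2, EIF4A2, EIF1 and EIF3E; filled red points have an adjusted p below 0.05. The strongly negative probes lie at the 3′ side in EIF4G2 and EIF4A2 and at the 5′ side in EIF1 and EIF3E.

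The 21 genes that were not tested had levels of -3.56 to 1.52 at their brightest probe, and 8 of them were well above background on no array. They include all of the EIF2AK kinases, 4 EIF3 subunits (EIF3G, EIF3H, EIF3J and EIF3M), EIF2A, EIF2B1, EIF2B2, EIF4E3 and EIF5A2. For these genes no statement on a difference can be made at this signal.

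The partners of the initiation factors form a list of 34 genes. Among them are poly(A)-binding proteins, the mTOR branch that acts on EIF4E, regulatory subunits of the EIF2 phosphatase and enzymes that hypusinate EIF5A. Of the 34 genes, 17 were tested, 6 fell and 2 rose, against 16.3% lower and 9.6% higher over all genes tested. The median difference of the 17 was -0.30, and 13 of the 34 were well above background on no array. Among the 10 well above background on all 4 arrays, 1 fell and 2 rose, with a median of 0.16, against 9.32% lower and 13.2% higher over all such genes. ATF4, the transcription factor whose own translation rises when EIF2 is phosphorylated, had levels of 3.19 and 3.39 in the high-fertile pair and of 2.04 and 2.25 in the low-fertile pair, and fell by 1.15 (SE 0.163, adjusted p = 0.0073, limma). AKT1S1, an inhibitory subunit of the mTOR complex, had levels of 3.81 and 3.88 against 5.08 and 5.25 and rose by 1.32 (SE 0.149, adjusted p = 0.0041). RPS6KB2, a kinase downstream of mTOR, had levels of 2.28 and 1.99 against 2.86 and 2.88 and rose by 0.73 (SE 0.165, adjusted p = 0.027). The other 5 that fell, PABPC4, PPP1R15B, LARP1, BZW1 and MTIF3, were not well above background on at least 1 low-fertile array.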

How the data were processed

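The 4 arrays (sperm RNA of 2 pools per fertility group, 2 bulls to a pool) were bovine arrays read with 1 dye, and the images were extracted with Agilent Feature Extraction 11.5.1.1 by the authors. The deposited scanner output holds linear intensity values with the background subtracted. The authors' deposited value table holds log2 values shifted by the 75th percentile of each array and was used as an alternative, since it differed from the recomputed values by a median of 0.009.

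Values were recomputed in Python 3.11.15 (numpy 2.4.6, pandas 2.3.3, scipy 1.17.1). After outlier spots had been dropped, each probe took the mean of its log2 spots, minus the array's 75th percentile of non-control probes. A probe was tested if both arrays of some group had it well above background, and these 21033 probes entered limma 3.58.1 (lmFit and eBayes) in R 4.3.3, with Benjamini-Hochberg adjustment over all of them, and the script was tested on simulated data. The probe with the highest mean signal stood for its gene. The number of arrays limits the precision. Pool numbers did not pair the samples (r = 0.0055 over 21024 probes). Within groups r was 0.981 and 0.980 over 12552 probes, and between groups 0.924 to 0.935.

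The member genes and lists were chosen with earlier results of these data known. Genes named with values are those that passed an adjusted p of 0.05 and the one with the highest mean signal in each factor group, and in the partner list up to 3 in each direction, well above background on all 4 arrays. Other members are named to complete a group. In all, 19 alternatives were run. They covered the percentile base, background correction, quantile and spike-in normalization (7 spike-in probes), filters on dim probes, outlier spots, an intensity trend, a replicate block, the deposited table, the methods' t-test, bright patches, GC content of the probe, the probe that stands for a gene, and each pool left out.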

Additional observations from a re-analysis of the deposited data

Results flagged for a closer look

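Beside the tested probes, 2 dim initiation factor probes were bright on 1 low-fertile array. A probe of EIF2B3, a subunit of the exchange factor EIF2B, at chr3:108026584-108026643 (Btau_3.1) reached a level of 6.31 in low-fertile pool 2, which is 8.13 log2 units above the higher high-fertile pool, and 4 of the 6 spots around it exceeded the other arrays by over 2 log2 units too. The part of the bright surroundings in that value was not tested. A probe of EIF2S2, the beta subunit of EIF2, at chr13:64338759-64338818 reached 1.52 in low-fertile pool 1, or 2.28 above the higher high-fertile pool, and 1 of the spots around it was raised.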

How the results depend on the processing

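The count of genes that fell, 9, was 14 with spike-in centring, which moved the median of all genes to -0.37, and 0 without a filter on dim probes, with the filter on positive and significant signal and in the methods' t-test after adjustment. No gene of the whole array passed after adjustment in these settings. At an unadjusted p under 0.05 limma gave 12 members lower and 1 higher without the filter and 14 and 2 with the signal filter. The methods' t-test gave 8 and 2, and the counts over all genes are given above. The other alternatives gave 6 to 11, with the 6 from the filter on all 4 arrays, under which 19 genes were tested. The count that rose, 1, was 4 with normexp correction, where 14.3% of all genes rose, likewise 4 with the filter on all 4 arrays, where 21.6% of all genes rose, 2 with quantile normalization, and 0 with the percentile over bright probes, spike-in centring, no filter, the signal filter, the replicate block, the deposited table, the methods' t-test, GC centring and the gene median. It was 0 to 1 with a pool left out. Of the genes well above background on all 4 arrays, 4 fell, against 8 with spike-in centring and 0 in the methods' t-test. There 1 rose, against 4 with normexp, 2 with quantile normalization, 0 with the percentile over bright probes, spike-in centring, the replicate block, the deposited table, the methods' t-test, GC centring, the gene median and each pool left out. With the replicate block, 9 genes fell and 0 rose, and no other count of calls moved by over 1.5 times.

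The median of the 34 genes, -0.25, was -0.21 with the percentile over bright probes and with quantile normalization, -0.14 with normexp, -0.63 with spike-in centring, -0.12 without a filter, -0.27 with the filter on all 4 arrays, -0.26 without bright patches, -0.11 with GC centring, where the median of all genes was -0.07 against 0.01, and -0.17 for the gene median, and ran from -0.35 to -0.16 with a pool left out. The share of lower among all called genes was 63.0%, and 91.8% with spike-in centring, 36.4% with the filter on all 4 arrays and 76.4% with GC centring. For the members it was 90%, and 60% with the filter on all 4 arrays and 73.3% with normexp correction. It was 100% with spike-in and GC centring, the percentile over bright probes, the replicate block, the deposited table and the gene median. In each of these settings no member rose.

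EIF1, EIF2D, EIF2S3, EIF3L, EIF4A2 and EIF4G2 lost their call in 3 alternatives each (no filter, the signal filter and the methods' t-test). The sign changed for EIF3K with GC centring (0.11), EIF4EBP1 for the gene median (0.12), EIF5A with spike-in centring (-0.17), and EIF5 for the gene median (-0.21) and without bright patches (-2.35). With a pool left out EIF5 ran from -2.36 to 3.77 and EIF2B4 from -0.25 to 0.012. Over the alternative values of single genes, 267 kept direction and side of the threshold, 50 lost the threshold, 11 passed it anew and the sign of 8 turned. The cause of these shifts was not tested. Signal near background limits the 15 genes that were not well above background on every array.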
